A study of Mus musculus with 20 samples.

Results

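The 10 genes of endothelial cell junctions described here were followed in the endothelial translatome of Py8119 mammary tumors: Cdh5, Pecam1, Cldn5, Esam, Jam2, Jam3, F11r, Tjp1, Ocln and Cgnl1. They were chosen by name, and 10 of 10 were among the 55866 genes of the count table. The host mice were female, on a C57BL/6J background, and carried Cdh5-driven tamoxifen-inducible Cre (Cdh5 Tg CreERT2) together with the floxed Rpl22 allele known as RiboTag (Rpl22 tm1.1Psam), a combination called RiboTagEC. Wherever the Cdh5 promoter has driven Cre, recombination joins an HA (hemagglutinin) tag to Rpl22, a protein of the large ribosomal subunit, so that immunoprecipitation (IP) with anti-HA recovers ribosome-bound mRNA of those cells. Both groups carried the same alleles, received tamoxifen at 75 mg/kg on 5 days from 3 weeks of age, and were implanted with Py8119 murine breast carcinoma cells at 8 weeks. Mice then received 6-3-A6, an antibody that neutralizes Notch4, at 25 mg/kg or control mouse IgG for 10 days, starting at a tumor volume given as 30 mm3 in the sample protocols and as 50 mm3 in the design text. From each of 10 tumors, 5 per antibody, part of the homogenate was kept as input and the rest went to IP, which gave 20 libraries in 4 groups of 5. Cdh5 is both a measured gene and the source of the promoter that drives Cre, and the Py8119 cells carry no RiboTag allele. For 6-3-A6 libraries the title and source name give 1 fraction and the description the other, and the title was used for the groups and for the libraries the study kept.

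Endothelial cells are held together by adherens junctions, in which VE-cadherin (Cdh5) binds its counterpart on the neighboring cell, and by tight junctions, in which claudin-5 (Cldn5) and occludin (Ocln) form strands that close the space between cells. The immunoglobulin-type adhesion molecules ESAM, JAM-A (F11r), JAM-B (Jam2) and JAM-C (Jam3) lie at the same contacts, and PECAM-1 (CD31) lies along the contacts outside the organized junctions. ZO-1 (Tjp1) and paracingulin (Cgnl1) are cytoplasmic proteins that tie junctions to actin. Cdh5, Pecam1, Cldn5 and Esam are known as genes of endothelium, whereas F11r, Tjp1, Ocln and Cgnl1 are also used by epithelia, and breast carcinoma cells can express them.

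Library totals lay between 11881214 and 26728205 counts on genes, so that a floor of 3 counts corresponded to between 0.106 and 0.273 CPM (counts scaled to library size), which covers counting error only. In 3 libraries, each the lowest of its group, the endothelial content was low. The mean log2 CPM of 17 endothelial genes, a list that holds none of the 10 junction genes and of which Ecscr had a count of 0 in every library, was 4.75 in 6-3-A6 IP 2 and 4.87 in control IgG IP 4 and between 5.63 and 6.87 in the other IP libraries. In 6-3-A6 input 4 it was 1.44, against 2.00 to 2.43 in the other inputs, and the median rank correlation of that library with its group was 0.894. Control IgG IP 4 was less separate from its group, since control IgG IP 5 followed at 5.63 and control IgG IP 2 at 6.25, and its median rank correlation of 0.963 lay within those of its group (0.952 to 0.977). Values without these libraries are given for the comparison of fractions and for the correlations of the junction genes with each other and with the endothelial mean, the genes with the closest profiles were chosen over all 10 IP libraries, and each library was left out in turn in the comparisons of antibodies. CPM values were scaled by TMM (trimmed mean of M values) factors over the 20 libraries.

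The 10 genes fell into a strongly enriched class, a weakly enriched class and 1 gene that was barely detected. Cldn5, Esam, Cdh5, Jam2 and Pecam1 were 17.4- to 30.6-fold higher in IP than in input, whereas F11r, Tjp1, Jam3 and Cgnl1 were 2.10- to 2.74-fold higher. Of the 9 genes that passed the filter on low counts, 9 were called higher in IP (edgeR quasi-likelihood test over 20 libraries, adjusted p under the threshold of 0.05). Over all genes, 19.8% were called higher, 21.4% lower and 41.2% in either direction. Of the 17 endothelial genes, 16 were tested and 16 were called higher, with a median log2 fold change of 4.52. Of these, 15 passed the filter in the inputs alone, so the set tested rests in part on high IP counts. In bulk samples such as these, fewer endothelial cells and less of an mRNA per endothelial cell cannot be told apart.

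**Figure D1:**
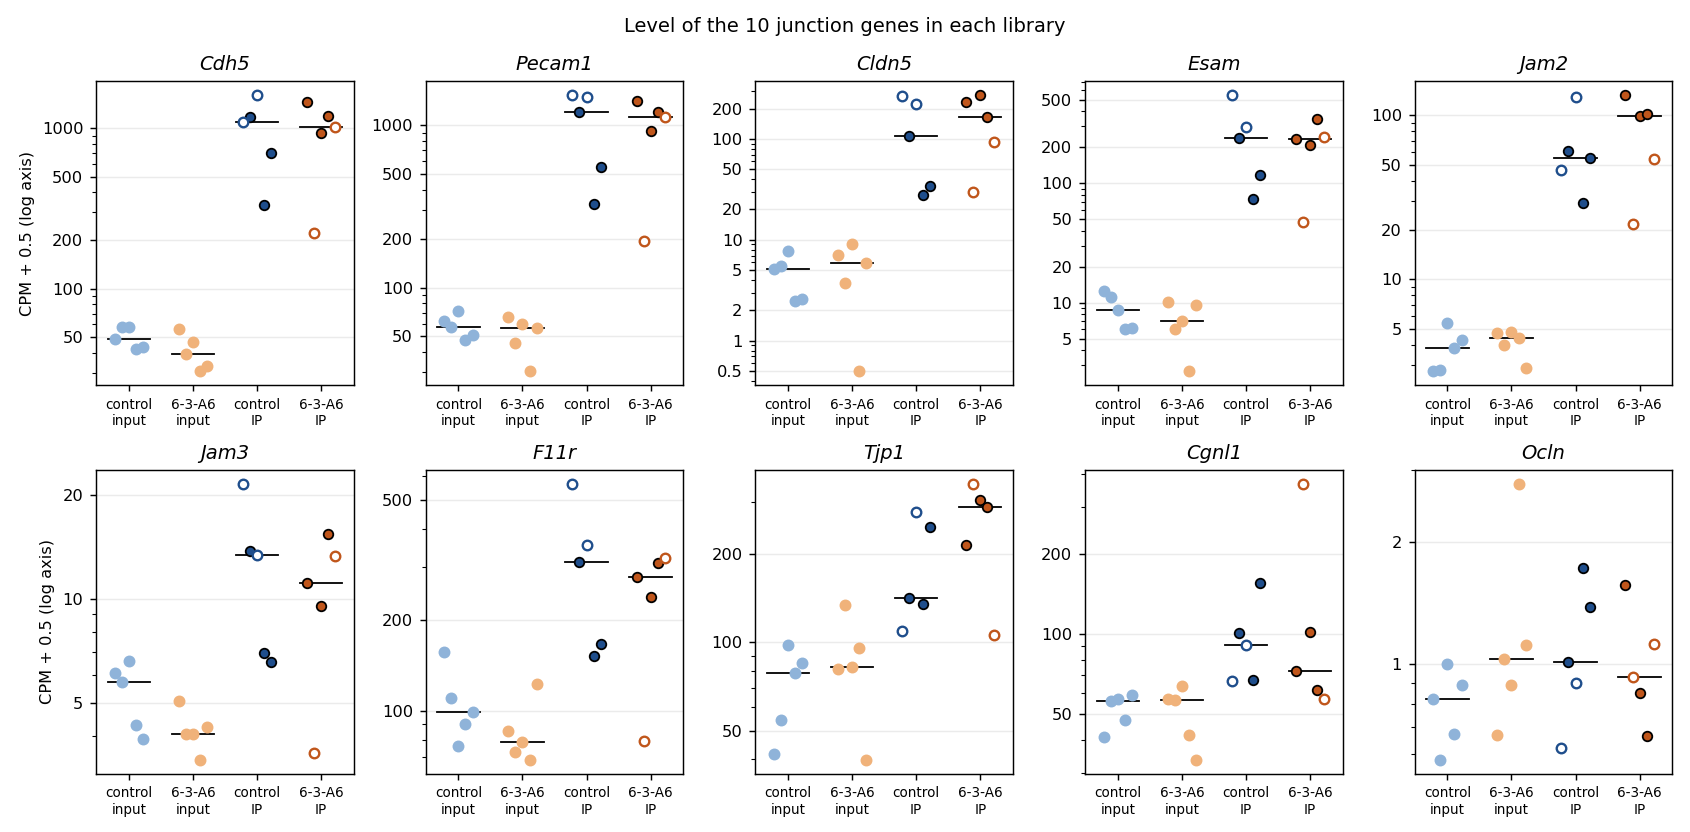
Level of each junction gene in the 20 libraries, as CPM + 0.5 on a log axis, with 1 point per library, replicates 1 to 5 from left to right and a line at the group median. Input points are plain, IP libraries that the study kept for its own comparison are outlined in black and the other IP libraries are open. The 5 genes of the upper row have no IP value as low as any input value, whereas the groups of Ocln overlap. The share of all genes whose fractions separate in this way was not determined.

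At the adherens junction, Cdh5 (chromosome 8, 104828257 to 104871143) had 48.5, 57.5, 57.5, 41.7 and 42.8 CPM in control IgG inputs 1 to 5 and 55.3, 38.6, 46.0, 30.1 and 32.3 CPM in 6-3-A6 inputs 1 to 5. In the IP it reached 1092, 1173, 1612, 331 and 699 CPM in control IgG tumors and 1447, 222, 930, 1188 and 1011 CPM in 6-3-A6 tumors. Every IP value lay above every input value, and the lowest of each IP group came from the libraries with the lowest endothelial mean. Here and for the genes below, the share of all genes with fractions this separate was not determined. The log2 ratio of IP to input was 4.36 ± 0.30 (SE, adjusted p = 2.20e-10, edgeR), and without the 3 libraries of low endothelial mean it was 4.58. Gm29682, a gene that covers 9.91% of the Cdh5 span, had 58 counts in total over all libraries.

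Pecam1 (chromosome 11, 106545043 to 106641454), an adhesion molecule of endothelial cells that platelets and leukocytes also carry, ranged from 30.0 to 71.2 CPM in input and from 193 to 1541 CPM in IP. Its log2 ratio of IP to input was 4.12 ± 0.32 (SE, adjusted p = 1.26e-09, edgeR). Of 4 platelet markers tested, 1 was called lower in IP and 0 were called higher, beside 21.4% of all genes lower, and the summed level of the 7 platelet markers was 54.8 to 107 CPM over all inputs and 32.4 to 69.8 CPM over all IP libraries. Of 10 macrophage markers, 7 were called lower in IP and 0 were called higher. The platelet marker Pf4 remained at 26.5 to 60.2 CPM and the macrophage marker Cd68 at 92.2 to 222 CPM in the IP, and their part in the Pecam1 level was not tested.

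Among the strand proteins of tight junctions, Cldn5 and Ocln stood at opposite ends. Cldn5 (chromosome 16, 18595597 to 18597012), the main claudin of endothelium, had 4.68, 4.99, 7.25, 1.96 and 2.13 CPM in control IgG inputs 1 to 5 and 6.53, 3.26, 8.53, 0 and 5.37 CPM in 6-3-A6 inputs 1 to 5. In the IP it had 268, 105, 221, 27.1 and 33.4 CPM in control IgG tumors and 232, 29.3, 273, 163 and 91.8 CPM in 6-3-A6 tumors. No IP library was as low as any input library, and the highest IP value exceeded the lowest 9.90-fold in control IgG and 9.30-fold in 6-3-A6 tumors. The log2 fold change was 4.94 ± 0.55 (SE, adjusted p = 3.52e-07, edgeR). Input library 4 of the 6-3-A6 group had a Cldn5 count of 0, and against a floor of 3 counts in that library its IP level of 163 CPM was at least 597-fold higher.

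Ocln (chromosome 13, 100633015 to 100689226) had between 1 and 25 counts in each of the 20 libraries. It ranged from 0.0818 to 2.28 CPM in input and from 0.122 to 1.22 CPM in IP, and its highest value was that of 6-3-A6 input 4. Ocln did not pass the filter for the comparison of fractions. Fitted without the filter, the log2 ratio of IP to input was 0.23 with a 95% interval of −0.76 to 1.22 (edgeR adjusted p = 0.766), so that a difference between fractions was not detectable at this depth.

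The immunoglobulin-type molecules were split between the classes. Esam (chromosome 9, 37439374 to 37449615) ranged from 2.18 to 12.1 CPM in input and from 47.4 to 547 CPM in IP, with a log2 fold change of 4.89 ± 0.39 (SE, adjusted p = 2.06e-09, edgeR). Jam2 (chromosome 16, 84571011 to 84622816) had 2.26, 2.29, 4.92, 3.34 and 3.80 CPM in control IgG inputs 1 to 5 and 4.23, 3.47, 4.29, 3.91 and 2.38 CPM in 6-3-A6 inputs 1 to 5. In the IP, Jam2 had 45.6, 59.8, 128, 28.7 and 54.5 CPM in control IgG tumors and 133, 21.3, 98.0, 101 and 53.7 CPM in 6-3-A6 tumors. The fractions of Jam2 did not overlap, and its log2 fold change was 4.28 ± 0.31 (SE, adjusted p = 4.71e-10, edgeR).

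The other JAM genes behaved differently. F11r (chromosome 1, 171265103 to 171292171) was already high in whole tumors, with 156, 110, 75.7, 89.5 and 98.5 CPM in control IgG inputs 1 to 5 and 85.0, 72.6, 78.0, 68.1 and 122 CPM in 6-3-A6 inputs 1 to 5. In the IP it had 566, 312, 354, 151 and 165 CPM in control IgG tumors and 278, 78.5, 238, 308 and 321 CPM in 6-3-A6 tumors. The fractions of F11r overlapped, since 6-3-A6 IP 2 had less F11r than several inputs and control IgG IP 4 less than control IgG input 1, and the log2 fold change was 1.45 ± 0.25 (SE, adjusted p = 9.06e-05, edgeR). Jam3 (chromosome 9, 27008680 to 27066717) ranged from 2.91 to 6.08 CPM in input and from 3.06 to 21.02 CPM in IP, with a log2 fold change of 1.298 ± 0.25 (SE, adjusted p = 0.000308, edgeR). The genes that share bases with Jam3 or Tjp1 in the table had 0 counts.

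The scaffold proteins were both in the weakly enriched class. Tjp1 (chromosome 7, 64945913 to 65177529) had 41.3, 53.9, 97.3, 77.9 and 84.3 CPM in control IgG inputs 1 to 5 and 80.5, 133, 82.0, 95.2 and 39.3 CPM in 6-3-A6 inputs 1 to 5. In the IP it had 109, 140, 275, 134 and 245 CPM in control IgG tumors and 213, 345, 304, 286 and 106 CPM in 6-3-A6 tumors. Tumors with a low Tjp1 input, such as control IgG 1 and 6-3-A6 5, also had a low Tjp1 IP, and the log2 fold change was 1.37 ± 0.23 (SE, adjusted p = 9.59e-05, edgeR).

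Cgnl1 (chromosome 9, 71533791 to 71678884) had 40.4, 55.5, 56.7, 46.9 and 58.6 CPM in control IgG inputs 1 to 5 and 56.4, 56.0, 63.4, 41.4 and 33.2 CPM in 6-3-A6 inputs 1 to 5. In the IP it had 66.3, 100, 90.8, 66.6 and 155 CPM in control IgG tumors and 72.0, 368, 101, 61.3 and 56.4 CPM in 6-3-A6 tumors. Library 6-3-A6 IP 2, in which Cdh5, Pecam1, Esam, Jam2 and F11r were at their lowest IP values, had the highest Cgnl1. The log2 ratio of IP to input was 1.07 ± 0.28 (SE, adjusted p = 0.00498, edgeR), and without the 3 libraries of low endothelial mean it was 0.72 (edgeR adjusted p = 0.00343).

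Positions are those of the count table, read as GRCm39, since 0 of the 10 genes start where GENCODE M21 places them on GRCm38. Reads were counted over the whole span of each gene, introns included, and Cldn5 is the member whose span of 1416 bases equals its longest transcript. Per kilobase of span, the mean IP level was highest for Cldn5 (102 ± 70.3 CPM per kb, SD, n = 10), followed by Esam (22.9 ± 14.1), Cdh5 (22.6 ± 10.4), Pecam1 (10.3 ± 5.01) and F11r (10.2 ± 4.97). Esam and Cdh5 differed by less than their SDs, as did Pecam1 and F11r. Per kilobase of the longest protein-coding transcript of GENCODE M21, a length chosen after the data had been seen, Pecam1 (289 ± 140) and Cdh5 (243 ± 112) were highest in the IP and differed by less than their SD, with Esam (126 ± 77.7), F11r (110 ± 53.5) and Cldn5 (102 ± 70.3) next. In input F11r was highest on either length, at 37.9 ± 10.8 CPM per kb of transcript against 15.8 ± 3.42 for Pecam1, the next gene. Per kilobase of span, F11r (3.53 ± 1.00) and Cldn5 (3.16 ± 1.87) differed in input by less than their SDs. Ocln was lowest on either length and in either fraction. These SDs are spreads between libraries that the genes share, so they do not test the order of a pair of genes. Levels per length were not compared within libraries.

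Without the 3 libraries of low endothelial mean, the log2 fold changes of IP over input were 5.08 for Cldn5, 5.07 for Esam, 4.58 for Cdh5, 4.55 for Jam2, 4.33 for Pecam1, 1.66 for F11r, 1.49 for Jam3, 1.41 for Tjp1 and 0.72 for Cgnl1, and all 9 were called. The split was also described within single tumors, from the same libraries. The log2 ratio of IP to input, with 0.5 CPM added, was 4.73 ± 1.51 for Cldn5 (SD, n = 10 tumors), 4.69 ± 1.08 for Esam, 4.24 ± 0.87 for Cdh5, 4.01 ± 0.77 for Jam2 and 3.97 ± 0.95 for Pecam1. It was 1.42 ± 0.27 for Tjp1, 1.41 ± 0.68 for F11r, 1.15 ± 0.66 for Jam3, 0.92 ± 0.69 for Cgnl1 and 0.12 ± 0.98 for Ocln. The 5 genes of the first class were higher in IP in 10 of 10 tumors, as were Tjp1, F11r and Cgnl1, whereas Jam3 was higher in 9 and Ocln in 5. Of all genes tested, 16.6% were higher in IP in all 10 tumors.

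Pecam1, the lowest of the first class by its mean, exceeded Tjp1, the highest of the next, in 10 of 10 tumors by 2.55 ± 0.87 on the log2 scale. Neighbors within a class differed on average by less than the SD of their difference, which is no test of the mean difference. The least even pairs were Esam above Cdh5 in 8 of 10 tumors by 0.45 ± 0.58 and Jam3 above Cgnl1 in 8 by 0.23 ± 1.25. Cldn5 exceeded Esam in 5 of 10 tumors by 0.04 ± 0.58, and without tumor 6-3-A6 4, whose input lacked Cldn5, the mean of Cldn5 was 4.32 and that of Esam 4.43. With that tumor at its bound instead, the mean of Cldn5 was 4.81 ± 1.75. In 6-3-A6 tumor 2 the classes met, since Pecam1 had a log2 ratio of 2.08 and Cgnl1 one of 2.705. In each of the other 9 tumors the lowest of the first 5 genes exceeded the highest of the next 4. The order and both classes came from the means of these same ratios. The counts per tumor thus describe the split and are no separate support for it.

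**Figure D2:**
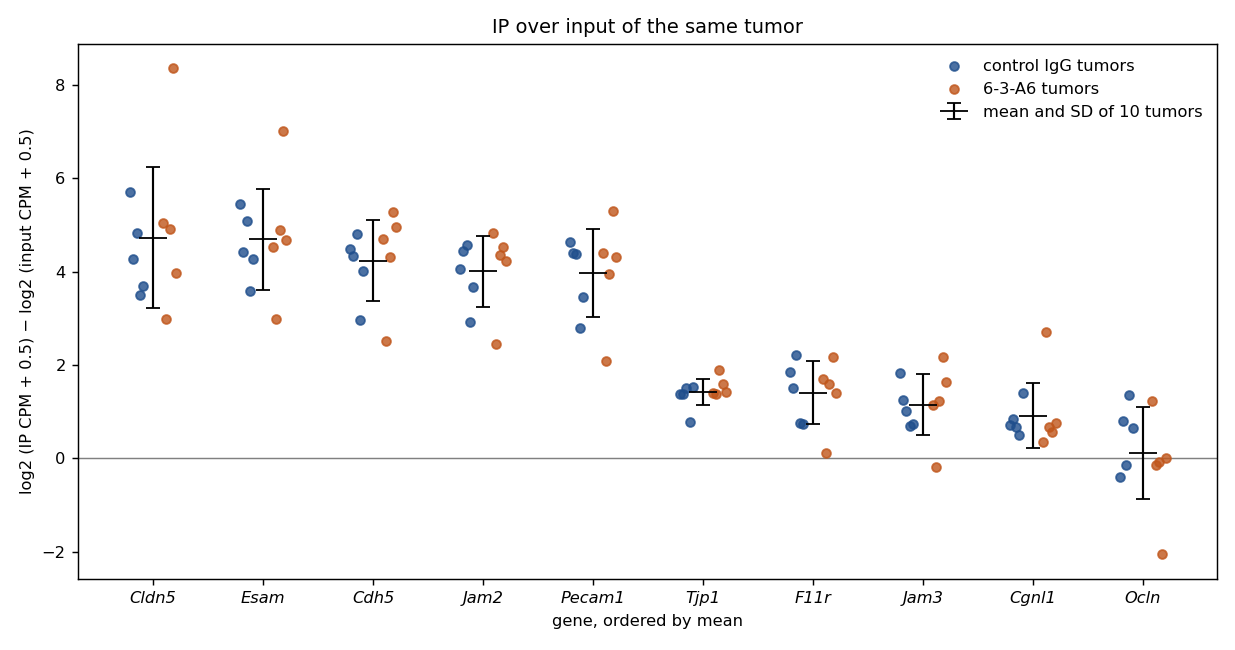
Log2 ratio of IP to input within each tumor (vertical axis, 0.5 CPM added to each level) for the 10 junction genes ordered by their mean, with 1 point per tumor, control IgG on the left and 6-3-A6 on the right of each gene, and the mean and SD of 10 tumors in black. Tjp1 had the smallest SD, 0.27, and the point of Cldn5 at 8.35 is the tumor whose input had a Cldn5 count of 0.

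The wider junction lists held genes called in both directions, beside 19.8% of all genes called higher and 21.4% called lower. Of 14 genes of adherens junctions, 10 were called higher and 2 lower in IP. Of 15 tested genes of tight junctions 5 were called higher and 3 lower, of 3 gap junction genes 2 higher and 1 lower, and of 16 junction regulators 9 higher and 2 lower. The median log2 fold changes of these lists were 0.97, −0.16, 1.46 and 0.61, beside −0.05 over all genes tested. In the tight junction list the share called lower was thus near that of all genes.

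Named by rule, the 3 highest were Fgd5, a guanine nucleotide exchange factor of endothelial cells (log2 fold change 4.81, edgeR adjusted p = 3.31e-11), Rasip1, an endothelial effector of Rap1 and Ras GTPases (4.60, edgeR adjusted p = 1.17e-09), and Pcdh12, a protocadherin of endothelial cells (4.39, edgeR adjusted p = 1.16e-10). Rasip1 did not pass the filter in the inputs alone and entered this comparison through its IP counts, so its direction was in part fixed by the filter. The 3 lowest were Cldn1, a claudin of epithelia (−1.18, edgeR adjusted p = 0.00133), Cdh2, which encodes N-cadherin (−1.13, edgeR adjusted p = 0.000106), and Cxadr, a junctional receptor of epithelia (−1.10, edgeR adjusted p = 0.0183). Of 8 epithelial markers, 2 were called lower in IP and 0 higher, beside 21.4% of all genes lower, and their summed level was 250 to 527 CPM over all inputs and 171 to 432 CPM over all IP libraries. Of 8 mural (pericyte and smooth muscle) markers, 2 were called higher and 0 lower, beside 19.8% of all genes higher. Their median log2 fold change was −0.08, and their sum was 132 to 238 CPM over all inputs and 183 to 442 CPM over all IP libraries. The part of mural RNA in the junction genes was not tested.

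Across the 10 IP libraries the junction genes did not vary as 1 block. The log2 CPM of Pecam1, Esam, Cdh5, Cldn5, F11r, Jam3 and Jam2 followed the mean of the endothelial list with Pearson r of 0.97, 0.96, 0.95, 0.95, 0.90, 0.88 and 0.83. Tjp1 had an r of −0.090, Ocln of −0.52 and Cgnl1 of −0.60. The values of Tjp1 and Cgnl1 depended on single libraries, since without 6-3-A6 IP 2 they were 0.25 and −0.19 and without control IgG IP 4 they were −0.33 and −0.898. Without both libraries the first 7 genes had an r of 0.88, 0.85, 0.75, 0.94, 0.76, 0.76 and 0.46 in the same order, so that Jam2 lay below the others, and Tjp1, Ocln and Cgnl1 had 0.036, −0.62 and −0.66. These are descriptions over 8 to 10 libraries that share their endothelial content, their depth and the libraries with few endothelial counts.

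**Figure D3:**
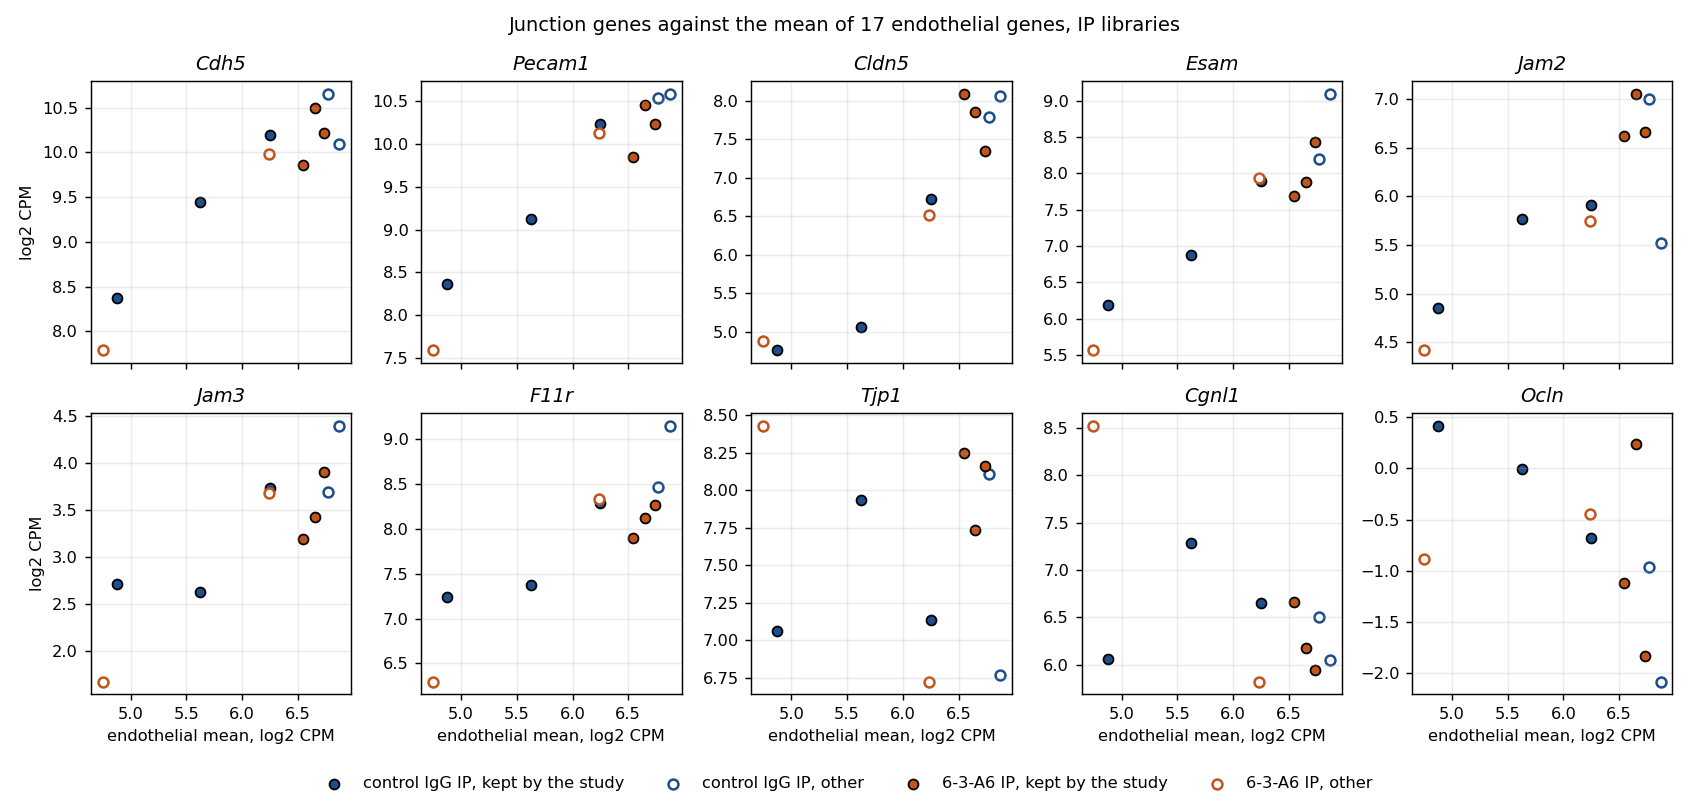
Log2 CPM of each junction gene (vertical axis) against the mean log2 CPM of the 17 endothelial genes (horizontal axis) in the 10 IP libraries, in blue for control IgG and in orange for 6-3-A6, filled for the 6 libraries kept by the study. The first 7 genes rise with the endothelial mean, Tjp1 does not, and Cgnl1 is highest in 6-3-A6 IP 2, where the endothelial mean is 4.75.

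Within the JAM family, Jam3 and F11r varied together in the IP (r = 0.99), and each was less close to Jam2 (r = 0.57 and 0.59). Without 6-3-A6 IP 2 and control IgG IP 4, Jam3 and F11r still had an r of 0.96, whereas Jam2 had −0.14 with Jam3 and −0.16 with F11r. In the 10 inputs F11r varied against Jam2 (r = −0.83) and against Tjp1 (r = −0.91), while Jam2 varied with Tjp1 (r = 0.80). Without 6-3-A6 input 4 these input values were −0.84, −0.91 and 0.79. Cdh5 and Pecam1 had an r of 0.98 in the IP, 0.88 without both IP libraries of low endothelial mean, and of 0.79 in input, 0.66 without 6-3-A6 input 4. Cgnl1 and Tjp1 had an r of 0.59 in the IP and of 0.63 in input, and of 0.43 and 0.76 without those libraries.

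**Figure D4:**
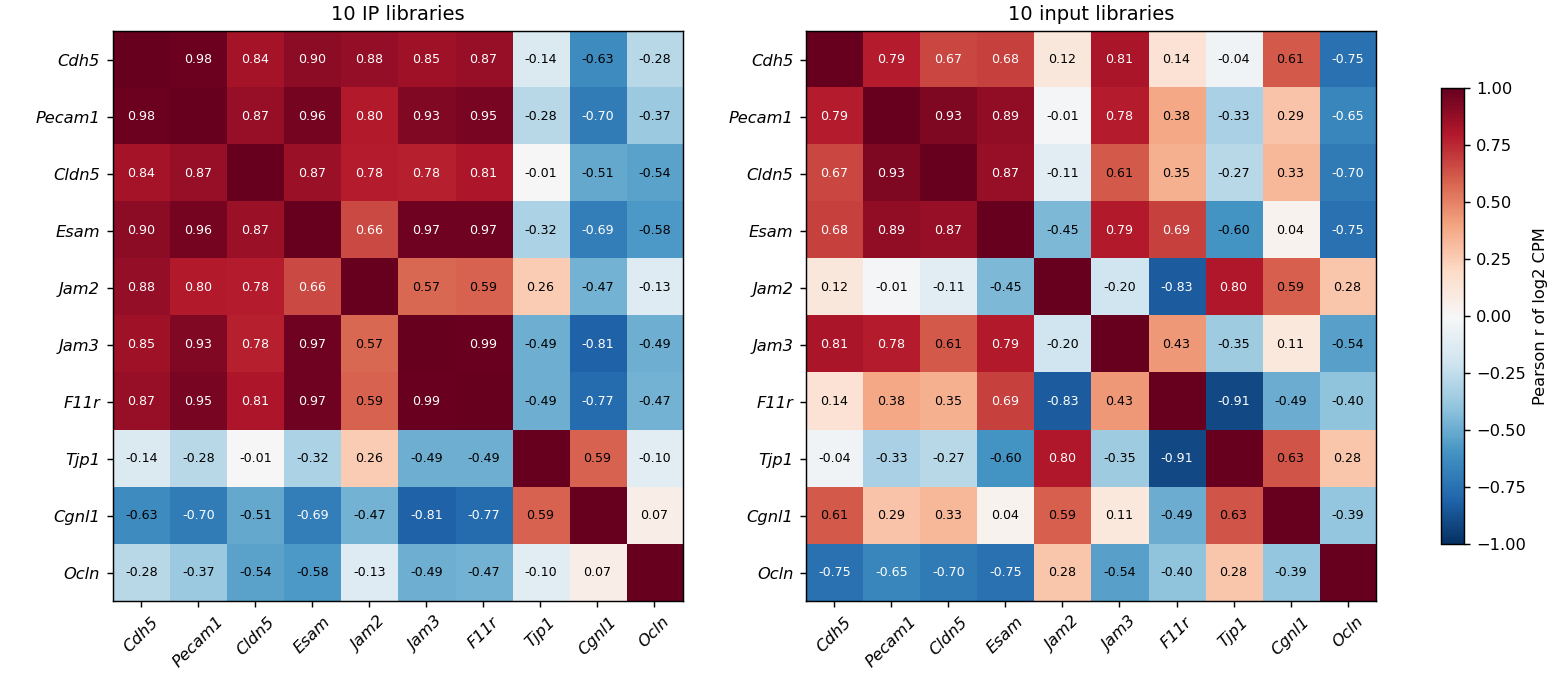
Pearson correlation of log2 CPM between the 10 junction genes over 10 IP libraries (left) and 10 input libraries (right), from −1 in blue to 1 in red, with the value in each cell. In the IP the first 7 genes have values of 0.57 to 0.99 with each other, a range that was −0.16 to 0.97 without 6-3-A6 IP 2 and control IgG IP 4.

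The gene with the closest profile over the 10 IP libraries, among tested genes that are not junction members, was Sparcl1 for Cdh5, Cdh13 for Pecam1, Slc35g2 for Cldn5, Icam2 for Esam and Cyyr1 for Jam2, with r between 0.98 and 0.99. Both Jam3 and F11r were closest to Procr, the endothelial protein C receptor (r = 0.99 for each). Cgnl1 was closest to Myo6, an unconventional myosin (r = 0.99), Tjp1 to Ddi2 (r = 0.97) and Ocln to Brpf3 (r = 0.91).

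Upstream sequence is shown for a pair of genes that followed the endothelial mean, Cldn5 and F11r, and a pair that did not, Tjp1 and Cgnl1. RefSeq (GRCm38.p6) entries were matched for 5 of the 10 genes, Ocln being the fifth and having 2 starts. Each line below gives the 250 bases before the annotated start, read 5′ to 3′ on the strand of the gene, with the letters GGAA, the core to which ETS factors bind, or its complement TTCC in capitals. The Cldn5 window lies at chr16:18776597-18776846 on the plus strand, F11r at chr1:171437311-171437560 on the plus strand, Tjp1 at chr7:65371245-65371494 on the minus strand and Cgnl1 at chr9:71771603-71771852 on the minus strand.
Cldn5: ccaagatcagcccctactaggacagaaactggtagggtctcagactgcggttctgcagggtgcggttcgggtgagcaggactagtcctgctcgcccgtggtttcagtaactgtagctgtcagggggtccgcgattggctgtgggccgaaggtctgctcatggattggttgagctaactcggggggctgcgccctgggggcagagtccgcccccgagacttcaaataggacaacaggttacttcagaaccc
F11r: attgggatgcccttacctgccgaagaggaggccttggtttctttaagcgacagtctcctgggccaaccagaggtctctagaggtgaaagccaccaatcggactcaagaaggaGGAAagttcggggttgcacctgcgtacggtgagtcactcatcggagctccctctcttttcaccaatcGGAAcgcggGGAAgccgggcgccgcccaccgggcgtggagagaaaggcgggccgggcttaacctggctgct
Tjp1: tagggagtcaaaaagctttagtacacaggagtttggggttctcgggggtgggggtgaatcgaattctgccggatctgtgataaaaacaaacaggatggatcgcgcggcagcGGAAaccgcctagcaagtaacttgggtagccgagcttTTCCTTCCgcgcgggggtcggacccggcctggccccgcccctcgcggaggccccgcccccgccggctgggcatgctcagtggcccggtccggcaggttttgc
Cgnl1: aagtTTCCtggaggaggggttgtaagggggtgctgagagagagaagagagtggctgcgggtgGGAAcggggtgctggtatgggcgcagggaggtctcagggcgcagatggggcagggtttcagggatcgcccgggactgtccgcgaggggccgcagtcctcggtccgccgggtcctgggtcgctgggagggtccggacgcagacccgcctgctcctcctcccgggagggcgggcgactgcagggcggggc
Counted on both strands, the core matched 0 times in the Cldn5 window, 3 times in F11r, 3 times in Tjp1 and 2 times in Cgnl1. Of 32851 windows of this length, 93.4% held at least 1 match, with a median of 3, so that these letters alone did not separate the pairs. The letters TATAAA were in none of the 4 windows and in 7.59% of all windows, searched on the strand of the gene. The windows held 12 CpG dinucleotides for Cldn5, 17 for F11r, 22 for Tjp1 and 20 for Cgnl1, beside a median of 6 over all windows. A match is a description of letters and says nothing of binding.

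The effect of 6-3-A6 on these genes was examined in all 10 IP libraries, in the 6 IP libraries that the study kept after principal component analysis (numbers 2, 4 and 5 of control IgG, and numbers 1, 3 and 4 of 6-3-A6) and in the 10 inputs. The study describes the libraries removed as outliers. Per its methods, treated and control IP libraries were poorly resolved at first and separated more clearly once the outliers had been removed. The 6 libraries were thus selected on the expression values that are compared here, the p-values in them do not account for this selection, and calls in them are given as a description of these libraries. The IP comparisons share libraries, so their values are set side by side and not counted as separate evidence. Over all 10 IP libraries no junction gene was called. Of 13602 genes tested, 0 (0%) were called with edgeR and 0 with DESeq2, and 292 had an unadjusted p under 0.05, none of them a junction gene. The log2 fold changes of 6-3-A6 over control IgG were −0.03 for Cdh5 (95% interval −1.03 to 0.97), −0.08 for Pecam1 (−1.17 to 1.00), 0.26 for Cldn5 (−1.17 to 1.68) and −0.25 for Esam (−1.41 to 0.91). They were 0.36 for Jam2 (−0.62 to 1.33), −0.25 for Jam3 (−1.14 to 0.64), −0.34 for F11r (−1.23 to 0.54), 0.46 for Tjp1 (−0.25 to 1.18) and 0.46 for Cgnl1 (−0.63 to 1.55). The intervals reached above a log2 change of 1 for Cldn5, Jam2, Tjp1 and Cgnl1 and below −1 for Cdh5, Pecam1, Cldn5, Esam, Jam3 and F11r.

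Several of these directions rested on single libraries. Without 6-3-A6 IP 2, 4 log2 fold changes took the opposite sign, with −0.42 for Cgnl1, 0.22 for Cdh5, 0.18 for Pecam1 and 0.0096 for Esam. Without control IgG IP 1, 4 did so as well, with 0.0039 for Cdh5, 0.11 for Pecam1, 0.25 for Esam and 0.062 for Jam3. The log2 fold change of Cdh5 was also positive without control IgG IP 2 or 3 and that of Pecam1 without control IgG IP 3, and that of Cldn5 was −0.023 without 6-3-A6 IP 3.

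In the 6 kept libraries, selected as described above, Cldn5 and Jam2 passed the threshold with higher values in 6-3-A6. Of the 10 junction genes, all of which passed the filter here, 2 were called higher and 0 lower, beside 2.57% of all genes higher, 2.04% lower and 4.61% in either direction. Cldn5 had 105, 27.1 and 33.4 CPM in control IgG IP 2, 4 and 5 and 232, 273 and 163 CPM in 6-3-A6 IP 1, 3 and 4. The log2 fold change was 1.99 (95% interval 0.99 to 2.98, edgeR adjusted p = 0.0354). Jam2 had 59.8, 28.7 and 54.5 CPM against 133, 98.0 and 101 CPM, with a log2 fold change of 1.18 (0.57 to 1.78, edgeR adjusted p = 0.0381).

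For Cldn5, the 4 libraries that the study left out did not follow this order. Control IgG IP 1 and 3 had 268 and 221 CPM of Cldn5, as high as the kept 6-3-A6 libraries, and 6-3-A6 IP 2 and 5 had 29.3 and 91.8 CPM, within the range of the kept control libraries. For Jam2, control IgG IP 3 with 128 CPM lay among the kept 6-3-A6 libraries and control IgG IP 1 with 45.6 CPM within the range of the kept controls, and 6-3-A6 IP 2 and 5 with 21.3 and 53.7 CPM lay at or below the kept controls. With these 4 libraries included, neither gene was called, as given above.

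The other 8 genes were not called in the kept libraries. The log2 fold changes were 0.67 for Cdh5 (95% interval −0.20 to 1.53), 0.73 for Pecam1 (−0.16 to 1.62), 0.84 for Esam (0.02 to 1.66) and 0.58 for Tjp1 (−0.02 to 1.19). They were 0.39 for Jam3 (−0.31 to 1.08), 0.36 for F11r (−0.25 to 0.97), −0.50 for Cgnl1 (−1.18 to 0.18) and −0.76 for Ocln (−2.16 to 0.63). The genes of the strongly enriched class had the 5 highest values, and the median over the 10 junction genes was 0.62, beside −0.05 over all genes tested and 0.95 over the endothelial list.

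**Figure D5:**
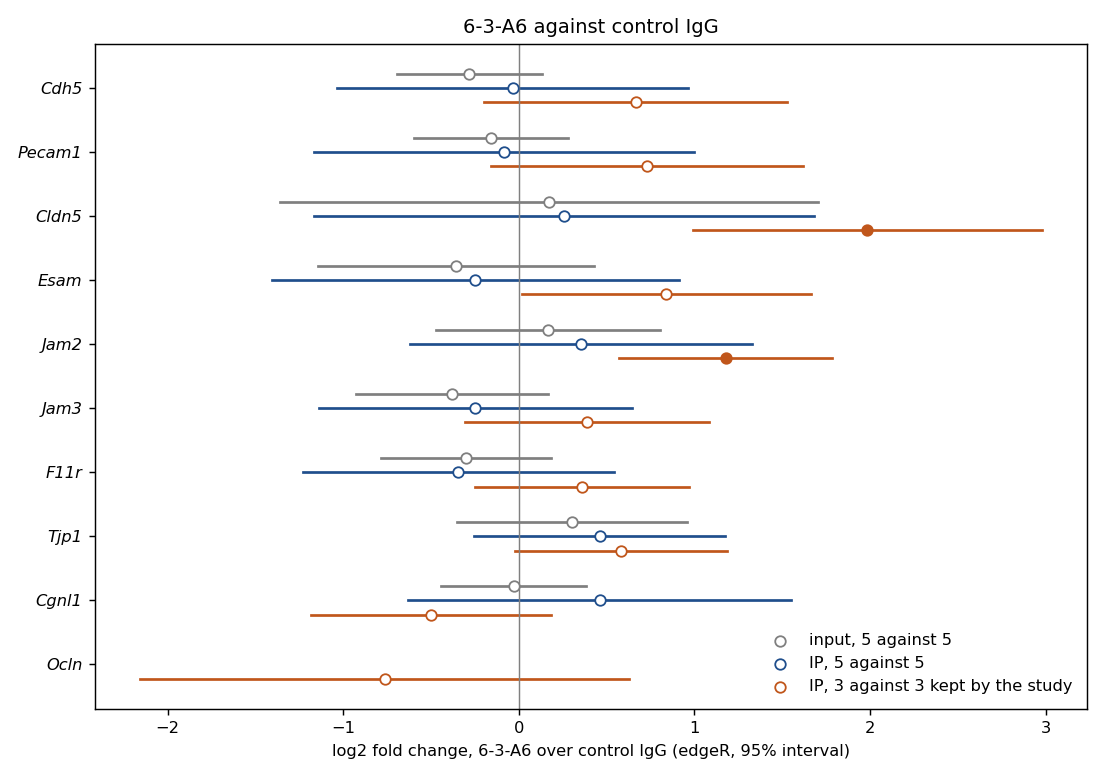
Log2 fold change of 6-3-A6 over control IgG with its 95% interval (edgeR) for each junction gene, in 5 against 5 inputs (gray), 5 against 5 IP libraries (blue) and the 3 against 3 IP libraries kept by the study (orange), with filled points for genes called. Filled points are those of Cldn5 at 1.99 and Jam2 at 1.18 in the kept libraries.

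Markers of several cell types differed between the kept groups, for which 2.57% of all genes were called higher and 2.04% lower. The summed level of the 17 endothelial genes was 944 to 2752 CPM in the 3 kept control IgG libraries and 3192 to 3644 CPM in the 3 kept 6-3-A6 libraries, and 6 of 16 tested endothelial genes were called higher and 0 lower. The 10 macrophage markers summed to 6558 to 7697 CPM in kept controls and 3346 to 3835 CPM in kept 6-3-A6 libraries, and 6 of 10 were called lower. The 8 epithelial markers summed to 333 to 399 CPM in kept controls and 171 to 254 CPM in kept 6-3-A6 libraries, and 2 of 8, Cdh1 (−1.43) and Epcam (−1.65), were called lower. The 7 erythroid markers had a median sum of 28.7 CPM in kept controls and 321 CPM in kept 6-3-A6 libraries, with overlapping ranges, and 3 of 4 tested were called higher. The 6 lymphoid markers summed to 14.2 to 23.9 CPM in kept controls and 10.2 to 13.7 CPM in kept 6-3-A6 libraries, with 0 of 4 called, and the median sum of the 7 fibroblast markers was 1415 CPM in kept controls and 799 CPM in kept 6-3-A6 libraries, with 2 of 7 called lower. Over all 10 IP libraries the sums of the antibody groups overlapped, at 944 to 4336 CPM in control IgG and 885 to 3644 CPM in 6-3-A6 for endothelial, 4661 to 7697 CPM and 3346 to 8851 CPM for macrophage and 194 to 399 CPM and 171 to 432 CPM for epithelial markers. Lymphoid sums were 13.7 to 23.9 CPM and 10.2 to 86.8 CPM and erythroid sums 21.1 to 512 CPM and 31.4 to 648 CPM over the same libraries, and fibroblast sums, at 502 to 2866 CPM and 598 to 2378 CPM, overlapped as well. The part of RNA of these other cell types in the junction genes was not tested. With the endothelial mean as a covariate, 0 junction genes were called, the log2 fold change was 0.86 for Cldn5 (edgeR adjusted p = 0.843) and 0.43 for Jam2 (edgeR adjusted p = 0.884), and those of Cdh5, Pecam1, Esam, Jam3 and F11r turned negative, between −0.57 and −0.35. With 1 covariate more, 6 libraries leave few degrees of freedom.

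Expressed as a difference from the endothelial mean in the same library (log2 CPM), Cldn5 lay between −0.56 and 0.47 in the kept control libraries and between 0.61 and 1.55 in the kept 6-3-A6 libraries. Over all 10 IP libraries it lay between −0.56 and 1.197 in control IgG and between 0.13 and 1.55 in 6-3-A6, and the groups overlapped. Cdh5 lay at a steady distance above the endothelial mean, at 3.67 ± 0.31 log2 units in control IgG IP (SD, n = 5) and 3.49 ± 0.32 in 6-3-A6 IP. For Jam2 the difference from the mean was −0.27 ± 0.65 in control IgG IP and −0.08 ± 0.35 in 6-3-A6 IP, and in the kept libraries the groups overlapped, at −0.34 to 0.15 and −0.076 to 0.40. F11r was 2.02 ± 0.30 above it in control IgG IP and 1.60 ± 0.29 above it in 6-3-A6 IP, and the groups, at 1.70 to 2.36 and 1.35 to 2.09, overlapped. In the kept libraries F11r lay at 1.74 to 2.36 in control IgG and 1.35 to 1.53 in 6-3-A6, and Cgnl1 at 0.399 to 1.66 and −0.79 to 0.12. In these ranges both genes lay lower in 6-3-A6, opposite to Cldn5. The share of all genes whose kept groups separate in this way was not determined. For the level itself neither gene was called in the kept libraries, with log2 fold changes of 0.36 for F11r and −0.50 for Cgnl1. Over all 10 IP libraries the Cgnl1 difference was 0.43 ± 1.01 in control IgG and 0.44 ± 1.89 in 6-3-A6, with overlapping ranges. Tjp1 and Cgnl1 had the widest ranges of the genes above the floor, 3.79 and 4.59 log2 units over the 10 libraries, and their highest values were both those of 6-3-A6 IP 2. Without that library the ranges were 2.41 and 2.47, close to that of Cldn5 (2.11).

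The calls in the kept set changed when single libraries were left out. Each such fit also has fewer samples, and the part of this in the lost calls was not tested. Cldn5 was no longer called without control IgG IP 4 (log2 fold change 1.68, edgeR adjusted p = 0.0811), control IgG IP 5 (1.73, edgeR adjusted p = 0.0826), 6-3-A6 IP 1 (1.95, edgeR adjusted p = 0.0762), 6-3-A6 IP 3 (1.82, edgeR adjusted p = 0.1003) or 6-3-A6 IP 4 (2.18, edgeR adjusted p = 0.0686), and it was called without control IgG IP 2 (2.87, edgeR adjusted p = 0.00413). Jam2 was no longer called without control IgG IP 4 (0.95, edgeR adjusted p = 0.0626) or any 1 of the kept 6-3-A6 libraries (1.01 to 1.26, edgeR adjusted p = 0.0840 to 0.105). Without control IgG IP 2, Pecam1 (1.41, edgeR adjusted p = 0.0391) and Esam (1.45, edgeR adjusted p = 0.0277) were called as well, and without control IgG IP 5 Tjp1 was (0.94, edgeR adjusted p = 0.0439). The direction of the values of Cldn5 and Jam2 stayed positive in each of these fits.

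Among the wider junction lists, beside 2.57% of all genes called higher and 2.04% lower, the kept libraries gave 1 of 14 adherens junction genes higher and 1 lower, 1 of 15 tight junction genes higher, 0 of 3 gap junction genes and 4 of 16 junction regulators higher. The 3 highest by rule were Cldn15, a further claudin (log2 fold change 2.09, edgeR adjusted p = 0.0181), Plekha7, an adherens junction protein (1.64, edgeR adjusted p = 0.0355), and Rasip1 (1.48, edgeR adjusted p = 0.0369), and Cdh2 was the 1 gene called lower (−1.09, edgeR adjusted p = 0.0285). Cldn15, like Cldn5, was a gene enriched in IP, with a log2 fold change of 3.96 over input. Unlike Cldn5, it did not pass the filter in the inputs alone and entered the comparison of fractions through its IP counts. Over all 10 IP libraries the values were 0.15 for Cldn15, 0.77 for Plekha7, 0.27 for Rasip1 and −0.48 for Cdh2, and 0 genes of the 4 lists were called.

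In whole tumors the antibody left no called difference in these genes. Of 13683 genes tested in input, 0 (0%) were called with edgeR and 0 with DESeq2, and 180 had an unadjusted p under 0.05. The log2 fold changes of the 9 junction genes tested lay between −0.38 for Jam3 (95% interval −0.93 to 0.17) and 0.30 for Tjp1 (−0.35 to 0.96). Cdh5 had −0.28 (−0.69 to 0.13) and Pecam1 −0.16 (−0.60 to 0.28), so that a log2 change of 1 in either direction lay outside both intervals. Cldn5, with counts of 0 to 153 per input library, had a far wider interval (0.17, −1.36 to 1.71).

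Whether the ratio of IP to input differed between antibodies was tested by the interaction of treatment and fraction over 20 libraries. This fit held no tumor term, although IP and input come from the same tumor. With the tumor as a block 0 genes were called. The interaction was then 0.23 for Cdh5, 0.27 for Cldn5, 0.11 for Jam2, −0.03 for F11r, 0.19 for Tjp1 and 0.13 for Cgnl1. The values that follow are those without the block. Of 14488 genes, 0 (0%) were called with edgeR and 0 with DESeq2, and 125 had an unadjusted p under 0.05. The interaction was 0.25 for Cdh5 on the log2 scale (95% interval −0.85 to 1.35), 0.07 for Cldn5 (−1.99 to 2.13), 0.19 for Jam2 (−0.99 to 1.37), −0.05 for F11r (−1.08 to 0.98), 0.17 for Tjp1 (−0.81 to 1.14) and 0.49 for Cgnl1 (−0.68 to 1.67). Ocln, which passed the filter in this fit, had −1.69 (−3.68 to 0.30) on counts of 1 to 25. Within tumors, the log2 ratio of Cdh5 was 4.12 ± 0.70 in control IgG (SD, n = 5) and 4.35 ± 1.09 in 6-3-A6, and that of Tjp1 was 1.31 ± 0.31 and 1.53 ± 0.22.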

How the data were processed

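RNA of homogenate (input) and anti-HA IP from 10 Py8119 tumors of RiboTagEC mice was sequenced as single reads. Per the methods, the authors aligned reads to mm10 with STAR 2.7.4a and deposited raw counts per gene from featureCounts 2.0.1 (the processing notes also list version 1.5.2). Gene length equaled the whole span for 55789 of 55789 genes with 1 span. Positions match GRCm38 for 1351 of 50612 named genes and span lengths for 48961, so the table was read as GRCm39. The strand setting is not given in the sources used here. The authors' table of their own comparison holds log2 fold changes, p-values, a score (test statistic) and a normalized signal per library, all deposited by the authors from DESeq2. Only its column names were used, to identify the 6 libraries kept. 0 columns belonged to unmapped samples.

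Counts were tested with edgeR 4.0.16 in R 4.3.3 (TMM, filterByExpr with a minimum count of 10, quasi-likelihood test, Benjamini-Hochberg over all genes tested, threshold 0.05). IP was compared with input with the antibody as a term and without a tumor term. The pairing of fractions entered the tests only where the tumor was a replicate block. DESeq2 1.42.0, other normalization and filters, a replicate block, an endothelial covariate and libraries left out were alternatives. Log2 CPM used a prior count of 2. Intervals are 95% intervals of the edgeR fit. IP and input with the same number come from 1 homogenate, and their deviations from group means correlated with r between −0.06 and 0.75. No replicate pair agreed within sampling noise (lowest median chi-square 2.23, against 0.455 from sampling alone). Each pipeline was tested on simulated counts.

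All 10 junction genes are named. Of the junction lists, the 3 highest and 3 lowest log2 fold changes among called genes are named, with the closest gene to each member and defining markers. The members and lists were chosen with earlier results of these data known.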

Additional observations from a re-analysis of the deposited data

Results flagged for a closer look

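Of 40 sets of 5 libraries (10 genes in 4 groups), 5 held a library whose distance from the nearest of the others, as a share of the range of log2 CPM, exceeded the Dixon 95% critical value of 0.71. Chance alone flags about 1 set in 20. In 4 of the 5 the library was 6-3-A6 IP 2, which had the lowest value of its group for Cdh5 (222 CPM, against 930 to 1447 CPM in the other 6-3-A6 IP libraries), Pecam1 (193 CPM, against 922 to 1403 CPM), Esam (47.4 CPM, against 207 to 344 CPM) and F11r (78.5 CPM, against 238 to 321 CPM). The endothelial mean of this library, 4.75 log2 CPM, was the lowest of the 10 IP libraries, and its Cgnl1 level, 368 CPM, was the highest. The study left this library out of its own comparison. In the fifth set, Cldn5 was at a count of 0 in 6-3-A6 input 4, against 3.26 to 8.53 CPM in the other inputs of the group, and the endothelial mean of that library, 1.44 log2 CPM, was the lowest of the inputs. No junction gene had an IP-to-input difference that was called as differing between antibodies.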

How the results depend on the processing

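The 9 junction genes called higher in IP were also called in each of the 6 alternative fits and each of the 20 fits without 1 library, over which the number of genes called lay between 5112 and 6205 without 1 library. It was 3347 in the 6 tumors of the kept libraries, where fewer samples were tested, and 7120 with the tumor as a replicate block, in which the log2 fold changes ran from 0.83 for Cgnl1 to 4.70 for Cldn5. The mean log2 ratio of Ocln within tumors lay between −0.018 and 0.36 without 1 tumor, and was negative without control IgG 4 or 6-3-A6 1. In the kept IP libraries, whose selection used the same expression values, 646 genes were called with edgeR, 1242 with DESeq2, 1459 without a filter, when Esam was called too, and 1 with the endothelial mean as a covariate. Under that covariate 0 junction genes were called, and the log2 fold changes turned to −0.57 for Cdh5, −0.51 for Pecam1, −0.35 for Esam, −0.38 for Jam3, −0.38 for F11r and 0.26 for Ocln. Between 9 and 653 genes and 0 and 4 junction genes were called without 1 kept library (9 without 6-3-A6 IP 3). When an arm is left with 2 samples the spread is shared over both arms.

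Over all 10 IP libraries no alternative called a junction gene. The log2 fold change changed sign without 1 library for Cdh5 (−0.25 to 0.22), Pecam1 (−0.30 to 0.18), Esam (−0.46 to 0.25), Jam3 (−0.41 to 0.062), Cldn5 (−0.023 to 0.697) and Cgnl1 (−0.42 to 0.72), in input for Cldn5 (−0.14 to 0.48) and Cgnl1 (−0.12 to 0.086). The interaction changed sign for Cgnl1 (−0.38 to 0.74), Cldn5 (−0.22 to 0.52), Esam (−0.12 to 0.61), F11r (−0.24 to 0.29), Jam2 (−0.064 to 0.61), Jam3 (−0.038 to 0.44), Pecam1 (−0.15 to 0.33) and Tjp1 (−0.014 to 0.36), and 0 genes were called in any of these fits. The causes were not tested. Same-numbered libraries of the antibody groups name different mice and deviated together with r of −0.21 to 0.41 in IP and −0.38 to 0.29 in input. With the number as a replicate block 0 genes were called in IP and in input, and Cldn5 in input was −0.19. The block changed no other direction or call. No paired analysis was possible for the kept IP libraries, because the groups share 1 number. With 1 to 25 Ocln counts per library, counting error limits any statement on Ocln.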
